A study of Mus musculus with 20 samples.

Results

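Primed regions are stretches of chromatin that carried H3K4me1 in all 4 genotypes of the series and no called acetylation in any of them. They were chosen from the peak lists. The 4 lists of H3K4me1 peaks were merged, and a merged region was kept if it lay on an autosome, overlapped a peak of each genotype, overlapped no H3K27ac and no H3K4me3 peak of any genotype, and lay more than 3000 bp from every annotated transcript start. Of 136477 merged H3K4me1 regions, 14482 met the rule, or 10.6%. Of the merged regions 134563 were autosomal, 46546 of these had a peak in every genotype, 28798 of these had no H3K27ac peak, and 20751 of these had no H3K4me3 peak either. Because peaks chose the members, the absence of both marks is a property of the rule and not a result. The peak lists do not show acetylation below the calling threshold, so no called peak does not mean no acetylation. H3K27me3 was not analysed here, so regions that also carry this repressive mark were not separated.

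The chromatin came from lineage-negative (Lin-) bone marrow, the cells left after removal of mature blood cells, with a stated purity above 80%. The 4 groups all carried the floxed Ep300 allele (Ep300 fl/fl). WT mice had this allele alone, Ep300Δ/Δ mice also had the Mx1-Cre transgene, Tet2-/- mice also lacked Tet2, and Ep300Δ/ΔTet2-/- mice had the transgene and lacked Tet2. All were injected with poly(I:C) 3 times from 6 to 8 weeks of age, which turns on the interferon-responsive Mx1 promoter in blood cells and in other tissues. Cells were taken 2 weeks after injection or at other stated times, and the time for the chromatin was not given in the sources used here. Each genotype and mark had 1 library, so the variation from mouse to mouse is not known, and genotypes were compared without a test. The H3K4me1 lists held 90738 to 107392 peaks and the H3K27ac lists 18327 to 29659, and the depth behind them is unknown. The progenitor promoters Kit, Spi1, Mpo, and Runx1 had H3K27ac peaks in 4 of 4 genotypes and Cd34 and Gata2 in 3 of 4, whereas the mature lymphoid genes Cd3e, Cd4, Cd8a, Ms4a1, and Cd22 and the non-blood genes Alb and Myod1 had neither H3K27ac nor H3K4me3 within 3000 bp of a start in any genotype. The non-blood gene Neurod1 had H3K4me3 in 4 of 4 and no H3K27ac. Other lymphoid promoters did carry H3K27ac, in 4 of 4 genotypes at 6 of 24 T and NK cell genes, among them Cd3d, Lck, and Cd2, and at 4 of 19 B cell genes, among them Vpreb1.

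H3K4me1 is laid down at enhancers mainly by the methyltransferases KMT2C and KMT2D, often before the enhancer is used. The acetyltransferases p300 and CBP add H3K27ac, which marks enhancers in use. An enhancer with H3K4me1 and without H3K27ac is usually called primed, and in blood progenitors such sites are found both at genes of later lineages and at genes that respond to a stimulus. TET2 oxidizes methylated cytosine and is active at enhancers.

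Windows of 300 bp at the midpoint show what the members look like in the GRCm38 (mm10) sequence, read from RefSeq's copy of the assembly on the plus strand. The first 5 windows come from 5 of the 6 regions with the highest lowest H3K4me1 percentile over the 4 lists, and the other one, near Fem1c and the fifth of the 6, is described without its sequence. The last 4 are the strongest primed regions of Il12b, Il10, Ccr7, and Runx1, whose values are given with the gene lists. Capitals mark matches to 15 short consensus motifs of blood transcription factors on either strand, and all other bases are in lower case.
Usp3: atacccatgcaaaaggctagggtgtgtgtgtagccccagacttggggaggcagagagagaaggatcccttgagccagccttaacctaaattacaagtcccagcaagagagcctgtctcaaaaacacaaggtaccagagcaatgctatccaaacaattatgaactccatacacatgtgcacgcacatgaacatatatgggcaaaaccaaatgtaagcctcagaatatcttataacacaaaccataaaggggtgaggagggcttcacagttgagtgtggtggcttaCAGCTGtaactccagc
Jun: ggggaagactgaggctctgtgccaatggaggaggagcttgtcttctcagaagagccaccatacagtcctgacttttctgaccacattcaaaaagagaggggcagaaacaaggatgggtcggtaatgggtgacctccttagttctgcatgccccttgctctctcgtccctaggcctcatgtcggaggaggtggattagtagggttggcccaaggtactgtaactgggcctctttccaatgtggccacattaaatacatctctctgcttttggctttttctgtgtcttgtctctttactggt
Fam107b: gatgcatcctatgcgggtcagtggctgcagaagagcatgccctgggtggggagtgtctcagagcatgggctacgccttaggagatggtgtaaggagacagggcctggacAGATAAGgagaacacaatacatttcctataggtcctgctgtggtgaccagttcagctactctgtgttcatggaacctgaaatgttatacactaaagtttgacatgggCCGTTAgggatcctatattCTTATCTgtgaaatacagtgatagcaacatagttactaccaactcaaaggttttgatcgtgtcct
Lims1: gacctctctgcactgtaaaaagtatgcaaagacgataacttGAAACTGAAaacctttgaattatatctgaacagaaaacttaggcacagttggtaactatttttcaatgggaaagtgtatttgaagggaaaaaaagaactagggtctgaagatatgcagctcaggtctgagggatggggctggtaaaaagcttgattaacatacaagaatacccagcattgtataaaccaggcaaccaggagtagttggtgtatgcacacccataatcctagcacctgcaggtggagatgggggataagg
Lcmt1: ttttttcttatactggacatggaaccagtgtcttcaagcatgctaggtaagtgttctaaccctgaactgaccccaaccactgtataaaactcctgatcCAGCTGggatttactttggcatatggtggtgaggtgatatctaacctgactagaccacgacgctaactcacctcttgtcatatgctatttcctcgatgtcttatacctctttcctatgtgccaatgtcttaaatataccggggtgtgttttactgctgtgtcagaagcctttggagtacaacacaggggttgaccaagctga
Il12b: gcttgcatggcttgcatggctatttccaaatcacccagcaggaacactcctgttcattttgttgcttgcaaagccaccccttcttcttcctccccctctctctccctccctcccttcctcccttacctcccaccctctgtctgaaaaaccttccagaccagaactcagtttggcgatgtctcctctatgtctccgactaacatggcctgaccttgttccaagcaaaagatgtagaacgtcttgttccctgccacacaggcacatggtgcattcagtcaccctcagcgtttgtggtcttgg
Il10: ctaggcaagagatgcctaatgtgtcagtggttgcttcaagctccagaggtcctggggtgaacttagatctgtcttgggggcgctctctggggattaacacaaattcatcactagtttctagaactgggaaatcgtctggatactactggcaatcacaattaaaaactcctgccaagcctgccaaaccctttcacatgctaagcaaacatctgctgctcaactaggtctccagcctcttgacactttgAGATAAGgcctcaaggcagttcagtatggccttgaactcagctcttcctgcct
Ccr7: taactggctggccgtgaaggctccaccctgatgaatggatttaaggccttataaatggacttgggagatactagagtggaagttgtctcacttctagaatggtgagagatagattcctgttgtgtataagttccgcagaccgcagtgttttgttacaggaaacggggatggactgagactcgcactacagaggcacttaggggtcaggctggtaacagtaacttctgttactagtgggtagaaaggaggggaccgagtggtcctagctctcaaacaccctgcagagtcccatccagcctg
Runx1: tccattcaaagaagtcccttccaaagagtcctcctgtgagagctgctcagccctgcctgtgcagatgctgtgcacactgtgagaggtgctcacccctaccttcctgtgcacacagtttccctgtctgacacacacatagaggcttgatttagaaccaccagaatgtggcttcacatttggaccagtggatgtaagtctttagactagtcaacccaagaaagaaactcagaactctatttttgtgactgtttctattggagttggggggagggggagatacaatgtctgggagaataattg

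The window at Usp3 (chr9:66559612-66559911) and the one nearest to Lcmt1 (chr7:123355312-123355611) matched 1 motif each, the E-box CAGCTG. The window at Fam107b (chr2:3720418-3720717) matched the GATA consensus AGATAAG and the MYB consensus TAACGG, and the window at Lims1 (chr10:58369229-58369528) matched the IRF consensus GAAANNGAA. The window near Il10 (chr1:131025422-131025721) matched the GATA consensus. The windows nearest to Jun (chr4:95156015-95156314), Il12b (chr11:44206428-44206727), Ccr7 (chr11:99143373-99143672), and Runx1 (chr16:92814783-92815082) matched none of the 15. Their G+C content ran from 41.3% at Lims1 to 52.0% at Il12b, and the window at Runx1 held 0 CpG. A match is a description of the letters and does not show that a factor was bound.

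The strongest member by its lowest value over the 4 lists lay in an intron of Usp3, which encodes a deubiquitinase, at chr9:66559504-66560020 and 6906 bp from the start of the gene. Its H3K4me1 fold enrichment over the H3 library, the authors' value for the strongest peak, was 11.0 in WT, 10.3 in Ep300Δ/Δ, 15.6 in Tet2-/-, and 11.4 in Ep300Δ/ΔTet2-/- cells. Folds were called list by list, so each was also ranked within its own list, from 0 for the weakest to 100 for the strongest peak, and by this percentile the Usp3 region stood at 98.9, 98.7, 99.7, and 98.7. Its nearest H3K27ac peak was 31749 to 31963 bp away in the 4 genotypes. The next region (chr4:95155685-95156644) had Jun, an AP-1 transcription factor, as its nearest coding gene, though the start of Jun was 103463 bp away. It overlapped the noncoding genes Junos and Gm28096, and its midpoint lay in an exon. Its percentiles were 99.5, 98.3, 99.2, and 99.4.

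The other 4 of the 6 strongest members were at Fam107b, at Lims1, near Fem1c, and in Arhgap17. The Fam107b region (chr2:3719262-3721874, intron) had a lowest percentile of 98.2 and the Lims1 region (chr10:58368766-58369992, intron) one of 98.1. Lims1 encodes an adaptor of integrin adhesions. These regions lay beside acetylated chromatin. The nearest H3K27ac peak was 498 to 593 bp from the Lims1 region and 987 to 1284 bp from the Fam107b region over the 4 genotypes. The intergenic region 9029 bp from the start of Fem1c (chr18:46535000-46535460), a gene for a ubiquitin ligase subunit, had a lowest percentile of 97.9, and its nearest H3K27ac peak was 8151 to 8353 bp away. The region in an intron of Arhgap17, which encodes a GTPase activator, had its nearest coding start at Lcmt1 (chr7:123353942-123356982), and its lowest percentile was 97.6. The strongest members thus ranged from sites within 1000 bp of acetylation to the site at Usp3, at least 31749 bp away.

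Before the acetylation rule was applied, the distal set held 19182 autosomal regions with H3K4me1 in all 4 genotypes, no H3K4me3, and no start within 3000 bp. Primed regions made up 75.5% of them. Another 4183 carried an H3K27ac peak in 1 to 3 genotypes, called variable here, and 517 carried one in all 4, called constant. The share without H3K27ac in a single genotype was 81.2% in WT, 92.0% in Ep300Δ/Δ, 87.9% in Tet2-/-, and 94.5% in Ep300Δ/ΔTet2-/- cells. The H3K27ac lists held 29659, 22727, 24539, and 18327 peaks in the same order, and the longer the list the lower was the share. The part of list length and library depth in these shares was not tested. The rule used these peaks, so the shares are a description.

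**Figure D1:**
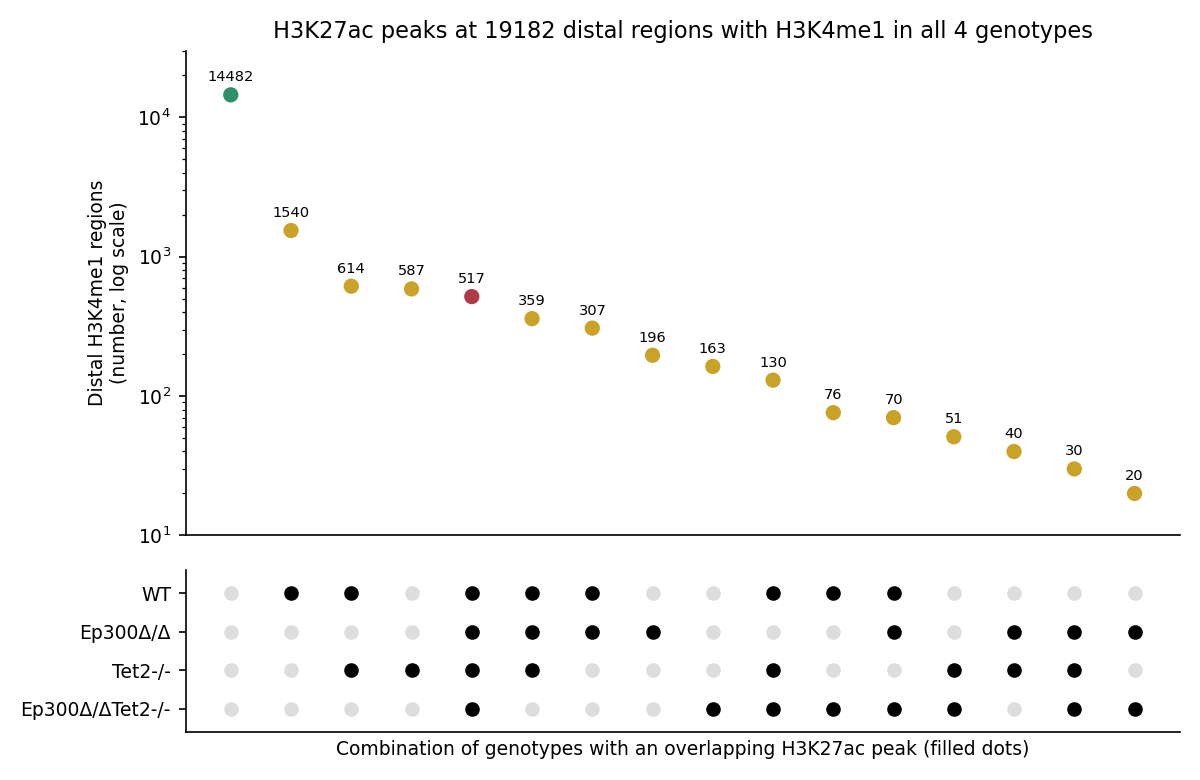
Number of distal H3K4me1 regions (log scale) for each combination of genotypes with an overlapping H3K27ac peak, with filled dots below marking the genotypes of the combination. The 14482 primed regions (green) stand far above the largest acetylated combination, WT alone with 1540 regions, and the 517 regions acetylated in all 4 genotypes (red) are the fifth most common pattern.

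Among regions acetylated in a single genotype, 1540 were acetylated in WT, 587 in Tet2-/-, 196 in Ep300Δ/Δ, and 163 in Ep300Δ/ΔTet2-/- cells. They were 42.6% of the 3613 distal regions acetylated in WT and 25.2% of the 2328 in Tet2-/- cells. The shares were 12.7% of 1539 in Ep300Δ/Δ and 15.4% of 1057 in Ep300Δ/ΔTet2-/- cells. The part of list length in these counts was not tested. The most common pair was WT with Tet2-/- at 614 regions. Regions that lacked an H3K27ac peak in WT seldom had one elsewhere. Of 15569 such regions, 708 had a peak in Tet2-/- cells (4.55%, 95% interval 4.23% to 4.89%), 286 in Ep300Δ/Δ cells (1.84%, 1.63% to 2.06%), and 264 in Ep300Δ/ΔTet2-/- cells (1.70%, 1.499% to 1.91%). In all, 1087 had a peak in at least 1 of the other genotypes (6.98%, 6.59% to 7.39%). The intervals are exact Clopper-Pearson intervals over regions. They cover counting error only and not differences between mice.

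Primed regions were narrower and carried weaker H3K4me1 than acetylated ones. Their median width was 856 bp, against 1160 bp in variable and 1613 bp in constant regions. The median fold of primed regions was 5.16 in WT, 4.90 in Ep300Δ/Δ, 5.97 in Tet2-/-, and 5.23 in Ep300Δ/ΔTet2-/- cells. By percentile, the medians were 63.5, 58.4, 66.1, and 61.9, whereas those of constant regions were 89.96, 89.2, 88.4, and 91.6. Variable regions lay between them in every list, at 83.9, 76.2, 82.2, and 79.7. The classes overlapped widely. Between their lower and upper quartiles, primed regions in WT spanned percentiles 36.3 to 83.0 and constant regions 74.4 to 96.7.

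**Figure D2:**
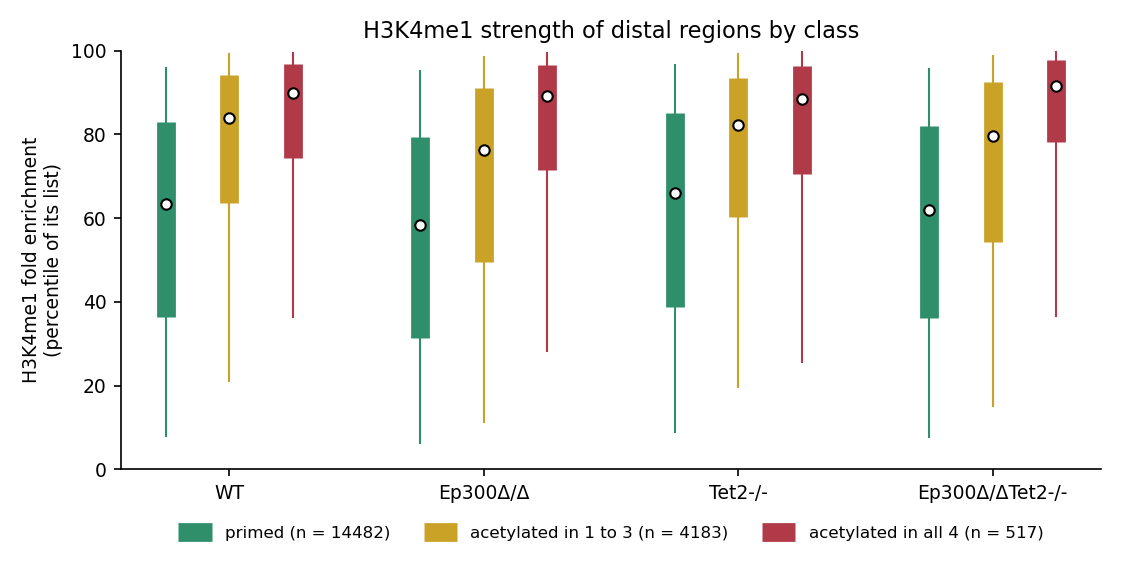
Percentile of H3K4me1 fold enrichment within its own list for primed, variable, and constant distal regions in each genotype. Circles are medians, thick bars run from the lower to the upper quartile, and thin lines from the 5th to the 95th percentile of regions, which describe the spread of regions and not of mice. The primed medians of 58.4 to 66.1 lie below the constant medians of 88.4 to 91.6 in each of the 4 lists.

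The share of distal regions that were primed was lower in stronger and in wider regions, beside 75.5% over all of them. Regions were split into 4 bins of equal size. From the weakest to the strongest bin by WT percentile the share was 88.7%, 82.6%, 74.3%, and 56.4%. From the narrowest to the widest bin it was 84.3%, 81.3%, 77.0%, and 59.4%. A wider region has more room to overlap any peak, so strength was also ranked within each width bin. In the narrowest bin, the share went from 91.1% (95% interval 89.3% to 92.6%) in the weakest to 73.3% (70.7% to 75.8%) in the strongest regions. In the widest bin it went from 77.6% (75.2% to 80.0%) to 37.3% (34.6% to 40.1%). The intervals of the weakest and strongest regions were apart in each of the 4 width bins. The ranking by Ep300Δ/Δ percentile gave shares of 85.1% to 59.5%, and the ranking by Ep300Δ/ΔTet2-/- percentile 85.8% to 58.5%. Distance from a start made little difference, with 77.4% in the nearest and 75.2% in the farthest bin.

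**Figure D3:**
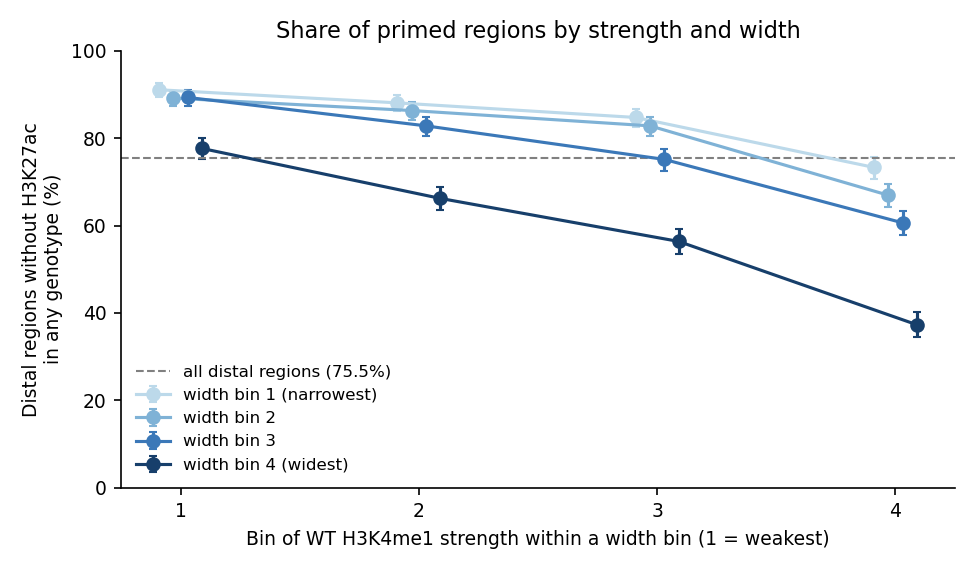
Percentage of distal H3K4me1 regions that were primed, by bin of WT H3K4me1 percentile (1 weakest, 4 strongest) within each of 4 bins of region width. Bars are exact 95% intervals over regions, and the dashed line is the 75.5% of all distal regions. Each line falls from left to right, and the widest and strongest regions reach 37.3%.

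The members differed in how evenly they were marked across genotypes. The same region often ranked high in 1 list and low in another, and the median range of its 4 percentiles was 48.6. In 3478 of the 14482 members (24.0%) the fold was above the median of its list in all 4 lists, and in 885 (6.11%) below it in all 4. Spearman's rank correlation of the percentiles between pairs of lists was 0.24 to 0.31 over the 14482 members, 0.29 to 0.34 over the variable regions, and 0.37 to 0.41 over the constant ones. All regions of a list share 1 library, so these coefficients are descriptions. In 5374 members (37.1%) the −log10 q of the strongest peak was at least 5 in all 4 lists, and 781 (5.39%) had a strongest peak with q above the stated threshold of 0.05 in at least 1 list. Peaks covered a median of 80.5% of the merged region in WT, 72.6% in Ep300Δ/Δ, 91.9% in Tet2-/-, and 78.4% in Ep300Δ/ΔTet2-/- cells. A single peak in each list made up 9816 of the members (67.8%).

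By genome position, primed regions were spread like distal regions as a whole. Their midpoint lay in an intron in 64.5% (95% interval 63.7% to 65.3%), between genes in 31.5%, and in an exon in 3.96%, beside 64.2%, 31.8%, and 3.95% of all distal regions. Variable regions were in introns in 63.8%. Constant regions were in introns in 59.8% (55.4% to 64.0%), and the 2 intervals for introns overlapped. They were between genes in 36.8% (32.6% to 41.1%), an interval above the 30.8% to 32.3% of primed regions. The median distance to the nearest annotated start was 11071 bp in primed and 11180 bp in constant regions. The share of primed among distal regions was 74.1% to 78.6% on the 19 autosomes. Just inside the limit of 3000 bp lay regions at 3001 bp from Gm9530, 3001 bp from Gm25962, and 3002 bp from Prpsap2, with WT folds of 4.60, 5.64, and 4.04. Just outside lay regions at 3000 bp from Irgm1, 3000 bp from Gm22662, and 2999 bp from Slc38a6, with WT folds of 9.45, 4.74, and 4.18.

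Another primed region lay within 5 kb of 46.7% (95% interval 45.9% to 47.5%) of the primed regions and within 50 kb of 83.7%, and the median distance to the next was 6221 bp. A primed region lay within 5 kb of 50.5% (48.9% to 52.0%) of variable and 46.6% (42.2% to 51.0%) of constant regions. Any other distal region lay within 5 kb of 54.9% (54.0% to 55.7%) of primed, 65.9% (64.5% to 67.4%) of variable, and 68.5% (64.3% to 72.5%) of constant regions. The interval of primed regions lay below the other two, and neighboring regions are not independent. In WT, an H3K27ac peak lay within 1 kb of 11.3% of the primed regions, within 10 kb of 51.3%, and within 100 kb of 93.9%. The median distance to the nearest H3K27ac peak was 9478 bp in WT, 15814 bp in Ep300Δ/Δ, 11942 bp in Tet2-/-, and 18304 bp in Ep300Δ/ΔTet2-/- cells. The shorter the H3K27ac list, the longer was the distance, and the part of list length was not tested. Only 552 primed regions (3.81%) had no H3K27ac peak within 100 kb in any genotype.

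**Figure D4:**
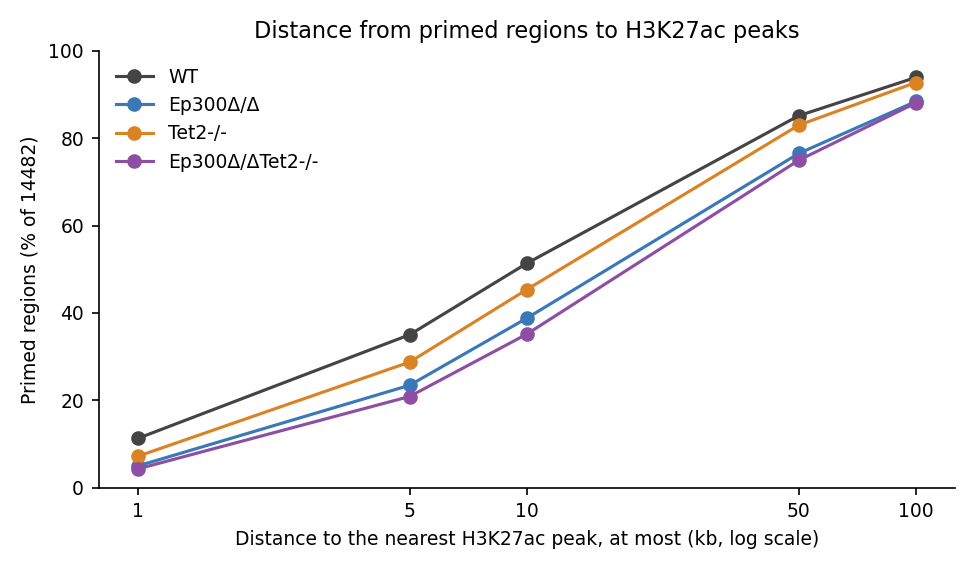
Cumulative percentage of the 14482 primed regions with an H3K27ac peak within 1, 5, 10, 50, and 100 kb (log scale) in each genotype. WT lies highest at each distance, with 51.3% within 10 kb, and Ep300Δ/ΔTet2-/- lowest, with 35.2%.

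Each primed region was assigned to the protein-coding gene with the nearest start. This named 5282 genes, 25.4% of the 20780 autosomal protein-coding genes. Of these genes 2484 had 1 primed region and 209 had 10 or more, and the latter held 2977 of the regions (20.6%). A nearest start does not show that an enhancer acts on that gene. Gene length moved with the count, with a median of 13.3 kb at the 15498 genes without a primed region, 29.0 kb at those with 1, and 148.4 kb at the 209 genes, and its part was not tested. Many promoters of these genes carried active marks. H3K27ac and H3K4me3 peaks within 3000 bp of a start were present in all 4 genotypes at 56.0% (95% interval 54.7% to 57.3%) of the 5282 genes and at 75.6% (69.2% to 81.3%) of the 209 genes, against 40.8% of all autosomal protein-coding genes and 69.6% (64.9% to 73.9%) of those nearest to a constant region. Another 692 of the 5282 genes (13.1%) had promoter H3K4me3 in all 4 genotypes and H3K27ac in none, against 11.3% of all autosomal protein-coding genes. Neither mark was called in any genotype at 621 (11.8%), against 32.9% of all autosomal protein-coding genes. Of the 5282 genes, 1919 (36.3%) were also nearest to an acetylated distal region. Among the 3363 genes that were not, 50.9% (49.2% to 52.6%) had both promoter marks in all 4 genotypes. There 15.6% had H3K4me3 in all 4 and H3K27ac in none, 14.6% had neither mark in any, and 34.0% had no H3K27ac in any.

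The 10 genes with the most primed regions included 6 transcription factor genes, Runx1, Etv6, Cux1, Bcl11a, Foxp1, and Runx2. Runx1, which is needed for the formation of blood stem cells, had 35, of which 27 lay in introns. In WT, their percentiles ran from 0.080 to 99.9 with a median of 81.5. The medians were 61.4 in Ep300Δ/Δ, 70.4 in Tet2-/-, and 69.8 in Ep300Δ/ΔTet2-/- cells, and the Runx1 region shown above (chr16:92814410-92815456, intron) stood at percentiles 91.5, 97.2, 87.7, and 87.7. Runx1 had 55 distal regions in all, so 63.6% (95% interval 49.6% to 76.2%) were primed, below the 75.5% of all distal regions but within counting error of it.

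Asap1, an activator of Arf GTPases, and Gse1 had 29 primed regions each, Ankrd11, a chromatin regulator, had 28, and Etv6, an ETS-family repressor needed by blood stem cells, had 27. Cux1, a homeobox factor, had 26. Bcl11a, a repressor of fetal globin, Foxp1, a forkhead factor, Msi2, an RNA-binding protein of stem cells, and Runx2 had 25 each. The share primed among their distal regions differed. It was 92.6% (95% interval 75.7% to 99.1%) at Msi2 and 90.6% (74.98% to 98.0%) at Gse1, and 47.4% (34.0% to 61.0%) at Etv6, where 27 regions were variable and 3 constant. The interval of Etv6 lay below 75.5%, and it is 1 of the 10 genes described here. Neighboring regions are not independent, so the interval may be too narrow.

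Some genes had many primed regions and no acetylated distal region in any genotype. Fbxw11, which encodes an F-box protein, and the zinc-finger gene Zfp704 had 18 of 18 primed, Tgfbr3, a TGF-β coreceptor, 17 of 17, and Spred2, an inhibitor of Ras signaling, and Tcf7l2, a Wnt pathway transcription factor, 16 of 16. These genes were chosen for this share, which is therefore a description. At Fbxw11 16 of the regions lay in the gene, and their median percentiles over the 4 lists were 71.2, 70.9, 72.9, and 66.3. At Tcf7l2 the medians were 72.3, 76.8, 61.3, and 81.2, and the regions lay 4.12 to 175.2 kb from a start. At Tgfbr3 they were 52.0, 31.3, 81.2, and 44.4, and at Zfp704 66.3, 45.1, 75.4, and 68.6. These medians ranked above the primed median in 4 of 4 lists at Fbxw11, 3 of 4 at Tcf7l2 and Zfp704, and 1 of 4 at Tgfbr3. At Spred2 they were 81.4, 69.1, 79.1, and 62.1, above it in 4 of 4.

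The share primed was also counted for 11 lists of genes by lineage and function. Of 223 distal regions nearest to the 20 stem and progenitor regulators, 136 were primed (61.0%, 95% interval 54.2% to 67.4%), below the 75.5% of all distal regions. Runx1, Etv6, and Erg held 135 of the 223. The intervals count regions as if independent, which neighboring regions of a gene are not, so they are no test of the list. The interval stayed below 75.5% without Etv6 alone (57.9% to 72.8%), without Runx1 alone (52.3% to 67.6%), without Erg alone (55.4% to 69.2%), and with starts within 100000 bp (61.2%, 54.0% to 68.1%). Without all 3 genes, like the single genes an alternative chosen after seeing the data, the share was 71.6% (61.0% to 80.7%), and with regions assigned to the nearest start of any gene it was 68.2% (57.2% to 77.9%), and both intervals held 75.5%. The list had the lowest share of the blood lists by nearest coding start, and neither of these alternatives kept that rank, since the macrophage and dendritic cell list was at 66.7% under both assignments. Myb, a progenitor transcription factor, had 14 of 17 primed, Fli1, an ETS factor, 14 of 18, Kit, the stem cell factor receptor, 12 of 20, and Erg, an ETS factor of stem cells, 11 of 23. Tal1, Gata2, and Mecom had 1 each, and Lyl1, Hoxa9, Gfi1b, Prdm16, and Zfp521 had 0. At Kit the median percentile over the 12 regions was 60.4 in WT, 37.97 in Ep300Δ/Δ, 71.1 in Tet2-/-, and 18.9 in Ep300Δ/ΔTet2-/- cells, so the 2 lists from Ep300-deleted mice had the lower values. At Myb the same medians were 60.5, 67.0, 58.8, and 66.7, and the 2 lists from Ep300-deleted mice had the higher ones.

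In the other blood lists the intervals held 75.5%. The myeloid differentiation list had 25 of 37 distal regions primed (67.6%, 50.2% to 82.0%) and the erythroid and megakaryocyte list 43 of 54 (79.6%, 66.5% to 89.4%), of which Bcl11a held 25. The macrophage and dendritic cell list had 42 of 63 (66.7%, 53.7% to 78.05%), the B cell list 36 of 50 (72.0%, 57.5% to 83.8%), and the T and NK cell list 35 of 48 (72.9%, 58.2% to 84.7%). The inducible inflammatory list had 33 of 40 (82.5%, 67.2% to 92.7%), and the list of chromatin and DNA methylation enzymes 31 of 37 (83.8%, 68.0% to 93.8%). Among the latter, Tet2 had 5 of 9, Kmt2a 4 of 4, and Ep300 0 of 2. Outside the blood lists, 5 of 6 distal regions were primed at neural, 7 of 10 at muscle and heart, and 3 of 6 at liver and gut genes.

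**Figure D5:**
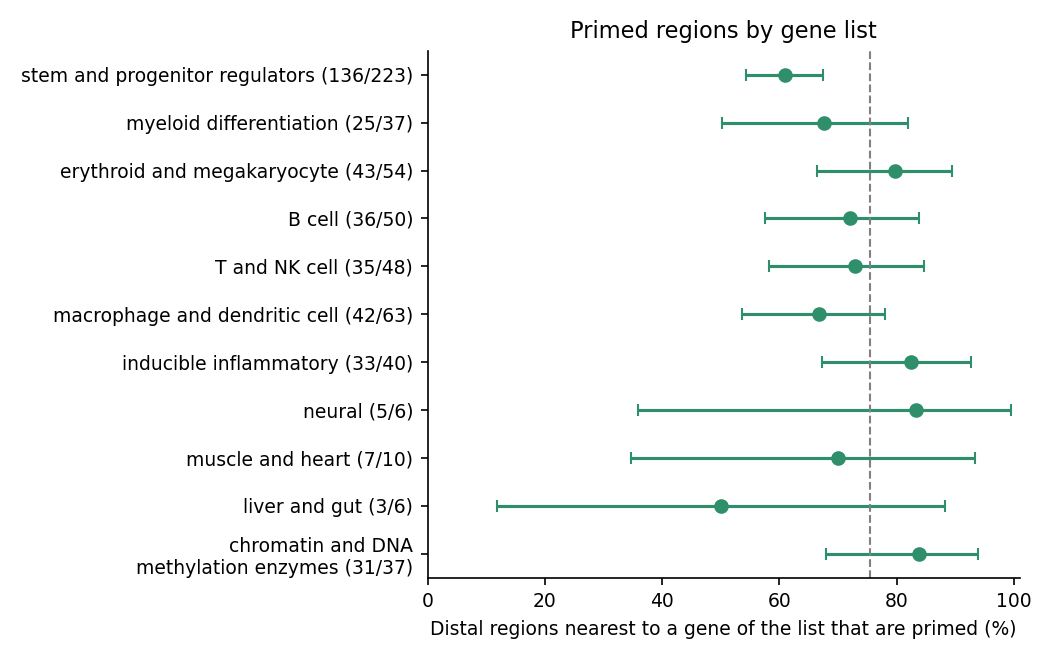
Percentage of distal H3K4me1 regions that were primed among those nearest to the genes of each list, with the counts in parentheses, exact 95% intervals over regions as bars, and the 75.5% of all distal regions as a dashed line. The stem and progenitor list, at 61.0%, is the 1 list whose interval lies wholly below the line, and without Runx1, Etv6, and Erg it is 71.6% with an interval that crosses it.

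The number of genes with a primed region also varied by list. Of the 20 myeloid differentiation genes, 16 were nearest to at least 1, as were 14 of 20 stem and progenitor regulators, 12 of 20 in the macrophage and dendritic cell list, 12 of 20 in the inflammatory list, 12 of 24 T and NK cell genes, and 10 of 19 B cell genes. This compares with 3 of 20 neural, 5 of 20 muscle and heart, and 3 of 19 liver and gut genes, and with 25.4% of all autosomal protein-coding genes. The erythroid and megakaryocyte list had 7 of 17, and the list of chromatin and DNA methylation enzymes 9 of 18. With the nearest start of any gene, fewer genes had a primed region in each list. The inflammatory list then had 7 of 20, the T and NK cell list 8 of 24, and the B cell list 7 of 19. The myeloid list had 13 of 20, the stem and progenitor list 11 of 20, and the neural list 1 of 20. The lists were not matched for gene length. A gene also needs a distal region to have a primed one, and 14975 of the 20780 autosomal protein-coding genes were nearest to none. In the myeloid, stem and progenitor, and neural lists each gene with a distal region had a primed one. Over all genes, 523 were nearest to acetylated distal regions but to no primed region. The counts thus describe distal H3K4me1 and are not particular to primed regions.

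The promoters of these genes differed by list. All 14 stem and progenitor genes with a primed region had promoter H3K27ac in at least 1 genotype, and 11 had it in 4 of 4, against 13 of 20 over the whole list. All 7 erythroid and megakaryocyte genes had it in 4 of 4, against 12 of 17 over the whole list. Promoter H3K27ac was called in none of the 4 genotypes at 4 of the 10 B cell genes (Ebf1, Il7r, Cd22, and Irf4), 3 of the 12 T and NK cell genes (Tcf7, Lef1, and Tbx21), 5 of the 12 macrophage and dendritic cell genes (Adgre1, Mertk, Batf3, and Ccr7 among them), and 5 of the 12 inflammatory genes (Il1a, Nos2, Ptgs2, Il12b, and Il10). These 17 genes had 39 primed regions together. The myeloid list had 1 such gene of 16, S100a8. Outside the blood lists there were 2 of 3 neural, 3 of 5 muscle and heart, and 3 of 3 liver and gut genes. For background, 28.0% of the 5282 genes nearest to a primed region and 48.4% of all autosomal protein-coding genes had no promoter H3K27ac peak in any genotype. Over the whole lists, with or without a primed region, it was 9 of 19 B cell, 12 of 24 T and NK cell, 8 of 20 macrophage and dendritic cell, and 8 of 20 inflammatory genes, so the genes with a primed region were near or below the share of their list.

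Ccr7, the chemokine receptor that guides activated dendritic and T cells to lymph nodes, had the most, with 6 primed regions of 7 distal ones over 18.1 kb. The region in an intron 5740 bp from a start (chr11:99146733-99149337) had folds of 6.84 in WT, 11.0 in Ep300Δ/Δ, 6.55 in Tet2-/-, and 11.6 in Ep300Δ/ΔTet2-/- cells, at percentiles 85.5, 99.2, 74.2, and 98.9. The intergenic region shown above (chr11:99141526-99145520) had folds of 7.38, 9.47, 7.80, and 8.91. In both regions the lists from Ep300-deleted mice had the 2 highest folds, and in none of the other 4 did they. The adjacent intronic region (chr11:99149406-99150069) had folds of 4.02, 3.97, 4.03, and 3.61, with the lists from Ep300-deleted mice lowest. With 1 library each, genotypes cannot be told apart from libraries. The nearest H3K27ac peak was 13333 bp from the intronic region in WT and 80218 to 80468 bp in the other genotypes.

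Il10, an anti-inflammatory cytokine gene, had 3 of 3 distal regions primed, at 5210, 6321, and 9180 bp from its start. The strongest (chr1:131025055-131026088) had folds of 6.10 in WT, 7.45 in Ep300Δ/Δ, 5.93 in Tet2-/-, and 9.60 in Ep300Δ/ΔTet2-/- cells, and percentiles of 78.6, 91.0, 65.7, and 96.3. The nearest H3K27ac peak was 40282 to 57675 bp away. Il12b, which encodes a subunit of interleukin 12 and interleukin 23, also had 3 of 3, of which 1 lay 4040 bp from its start (chr11:44395351-44396023) with folds of 3.76, 2.51, 6.32, and 4.91. The region shown above (chr11:44205854-44207302) lay 192761 bp from the start of Il12b, with folds of 4.67, 4.97, 7.76, and 6.69, and no H3K27ac peak lay within 262524 bp of it in any genotype. Nos2, the inducible nitric oxide synthase, had 1 region 3473 bp from its start (chr11:78915381-78917314) with folds of 5.999, 7.61, 4.86, and 6.36.

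Irf4, a transcription factor of activated lymphocytes and plasma cells, had 5 of 6 distal regions primed, 17156 to 67921 bp from its start. The strongest peak at each varied by list. The intergenic region at chr13:30775468-30776582 had a fold of 8.46 in WT, against 4.33 in Ep300Δ/Δ, 4.39 in Tet2-/-, and 6.10 in Ep300Δ/ΔTet2-/- cells, and the region at chr13:30785444-30786889 had 3.37 in WT, against 8.22, 6.22, and 5.03. The order of the genotypes thus differed between neighboring regions of the same gene. Tcf7, a transcription factor of early T cells, had 1 wide region (chr11:52304207-52306868) with folds of 7.09, 5.47, 7.37, and 7.09, and Lef1, its homolog, 1 region at 95419 bp with folds of 4.44, 4.62, 4.17, and 5.51. Adgre1, which encodes the macrophage marker F4/80, had 4 of 8 primed, and all 4 lay within 1000 bp of an H3K27ac peak in WT, the nearest at 226 bp.

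The single primed region of Spi1, the myeloid master regulator PU.1 (chr2:91100271-91102351, intron), lay 1336 to 1949 bp from an H3K27ac peak in the 4 genotypes, with folds of 7.998 in WT, 3.95 in Ep300Δ/Δ, 5.47 in Tet2-/-, and 6.36 in Ep300Δ/ΔTet2-/- cells. Cd34, a surface protein of progenitors, had 3 of 6 primed, and the region at chr1:194980829-194981267 had folds of 6.42, 6.47, 6.54, and 6.74, close to even over the genotypes. Tet2 had 5 primed regions. The intronic one at chr3:133548186-133548489 had folds of 8.98, 5.83, 4.68, and 2.61, lower in Tet2-/- than in WT cells. The other 4 were higher in Tet2-/- than in WT cells, among them the region next to it (chr3:133548986-133549340) with folds of 5.35, 5.61, 7.57, and 5.11. At Kmt2a, which encodes an H3K4 methyltransferase, the intronic region at chr9:44868179-44869119 had folds of 11.3, 7.82, 12.8, and 11.2 and stood above percentile 92 in every list.

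In sequence, primed regions had a median G+C content of 49.3% in the 300 bp at the midpoint, against 48.7% in variable and constant regions. They held 3.79 CpG per window on average, against 3.51 in constant regions. At the summit of the strongest WT peak the order of G+C turned, at 50.7% in primed and variable and 51.0% in constant regions, and the CpG means were 3.90 and 3.83. Repeats, as soft-masked in the reference, filled 15.5% of the primed and 15.2% of the constant windows on average. A window without CpG was found in 4.64% (95% interval 4.30% to 5.00%) of primed and 5.996% (4.11% to 8.40%) of constant regions, and the intervals overlapped.

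The motifs were searched as exact letters, with N for any base, on both strands. The E-box CAGCTG, bound by E proteins, was the most common, in 21.4% (95% interval 20.7% to 22.1%) of primed and 21.04% of all distal windows. The RUNX letters AACCACA were in 10.6% of primed, 9.86% of constant, and 10.4% of all distal windows, the PU.1 type ETS letters GAGGAAGT in 4.96%, 5.22%, and 4.93%, and the GATA letters AGATAAG in 5.35%, 4.84%, and 5.36%. The IRF letters GAAANNGAA were in 8.92% of primed and 9.01% of all distal windows, and the C/EBP letters TTNNGCAAT in 2.45% and 2.58%. For 12 of the 15 motifs the intervals of primed and constant regions overlapped. The 3 others were lower in primed than in constant regions. The AP-1 letters TGANTCA were in 9.94% (9.46% to 10.4%) of primed, 13.3% (10.5% to 16.6%) of constant, and 10.2% of all distal windows. The CTCF letters CNAGGGGGC were in 0.849% of primed, 2.13% of constant, and 0.824% of all distal windows, and the HOX type letters TGATTNAT in 2.87%, 4.84%, and 2.92%. Variable windows held the AP-1 letters in 10.6%, the HOX type letters in 2.87%, and the CTCF letters in 0.574%, the last below primed windows. In windows at the summit of the strongest WT peak the intervals for these 3 overlapped, and RUNX and C/EBP were apart instead, both higher in primed regions. There RUNX was in 9.71% (9.23% to 10.2%) of primed and 6.19% (4.27% to 8.63%) of constant windows, and C/EBP in 2.22% (1.98% to 2.47%) and 0.193% (0.0049% to 1.07%), the latter being 1 of 517. At the midpoint C/EBP had been lower in primed than in constant windows (2.45% against 3.09%). In windows of 600 bp AP-1 alone was apart, so no motif was apart in all 3 kinds of window.

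The remaining 6 motifs were close to their shares in all distal windows, most of which are primed. The general ETS letters CCGGAAGT were in 0.456% of primed and 0.5005% of all distal windows, the NF-kB letters GGANTTTCC in 1.22% and 1.21%, the MYB letters TAACGG in 2.12% and 2.02%, the TCF/LEF letters CTTTGAT in 4.22% and 4.15%, the EBF letters CCCNNGGGA in 4.99% and 5.02%, and the OCT letters ATGCAAAT in 1.23% in both.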

How the data were processed

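The authors used Cutadapt 1.15 for trimming, BWA 0.7.13 for alignment to mm10, and Picard for duplicates, filtered by mapping quality and blacklist, and called peaks for each library with macs2 2.1.1.20160309 against the H3 library, with pseudo-replicates and a stated q threshold of 0.05. The methods call the reads paired-end and the labels single-end. The deposited lists hold for each peak a fold enrichment (a ratio to the H3 library), the −log10 of the P and q values, and a score, which was not used. Read depth is unknown from them, and a mark that narrowly missed the threshold in a library counts as absent. Of 20 samples, the 8 for H3 and H3K27me3 were not analysed here.

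Lists were merged with an overlap of at least 1 bp. Fold was ranked to a percentile within its own list, and the strongest peak of a list stood for the region. Starts came from GENCODE M21 (Ensembl 96) on GRCm38, whose chromosome lengths exceed the last peaks. Named were the 6 primed regions with the highest lowest percentile, the 10 genes with the most primed regions, the 5 with the most and no acetylated distal region, the 3 regions on either side of the 3000 bp limit, and members of 11 gene lists. The members and lists were chosen with earlier results of these data known. A few members of the lists count in the totals and are not reported here by name. Ahsp was not found in the annotation, and Gata1, Alas2, Btk, F9, Kdm5c, and Kdm6a are X-linked. Shares carry exact Clopper-Pearson 95% intervals. With 1 library per genotype and mark no test was made. Alternatives changed the limits of the rule, the lists, the assignment, and the windows. All 7 steps of the interval, motif, and interval-bound code tested on simulated data were right in every case. Python 3.11.15, numpy 2.4.6, pandas 2.3.3, scipy 1.17.1, matplotlib 3.10.9, and bedtools 2.31.1 were used.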

Additional observations from a re-analysis of the deposited data

Results flagged for a closer look

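The number of primed regions with more than 1 H3K4me1 peak went in opposite directions with Ep300 deletion in the 2 Tet2 backgrounds. It was 2555 in WT and 2227 in Ep300Δ/Δ cells, and 1232 in Tet2-/- and 2015 in Ep300Δ/ΔTet2-/- cells, a change of -328 against 783. With 1 library per genotype the difference was not tested. H3K4me1 peaks were wider in Tet2-/- cells (median 506 bp) than in the other 3 lists (426 to 442 bp), and the part of peak width in these counts was not tested.

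Chromosome X, which the rule leaves out, held 112 regions that met all other conditions, of 147 distal regions (76.2%, 95% interval 68.5% to 82.8%). All 112 lie outside the comparisons of the report.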

How the results depend on the processing

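No paired analysis was possible because each genotype and mark had 1 library. The 14482 primed regions became 5436 when H3K4me1 peaks needed a −log10 q of at least 5, 7793 when regions lay more than 10000 bp from a start, and 9006 when the peaks of each genotype covered 50% of the region. The share primed, 75.5%, was 63.1%, 74.8%, and 71.3% under these settings, 68.0% with no H3K27ac or H3K4me3 peak within 1000 bp, 83.7% when only peaks with −log10 q of at least 5 removed a region, 74.0% with H3K4me1 lists of equal size, and 74.7% with peaks up to 500 bp apart merged. The share in introns, 64.5%, was 67.3%, 61.5%, and 66.1% under the first 3 settings, 63.2% with protein-coding starts only, and 62.1% with the merging gap. The WT median percentile, 63.5, was 78.5 with the stricter H3K4me1 peaks, 68.2 with 50% covered, 61.9 with the 1000 bp margin, 65.7 with the stricter removing peaks, and 67.2 with lists of equal size. Leaving out each genotype in turn gave 17548 to 18902 regions, shares of 78.2% to 84.5%, and introns in 63.1% to 64.8%. The WT percentile, which has no value without WT, was 60.2 to 61.9 in the others. Without a genotype the rule asks for no H3K4me1 peak of it and uses none of its H3K27ac or H3K4me3 peaks. More regions can then pass, and 99.1% to 99.7% of the 14482 members stayed. The part of this in the shares was not tested. With the nearest start of any gene, 6 of 11 list shares stayed within their intervals and 5 moved, and within 100000 bp all 11 stayed. At the WT summit 10 of 15 motif shares stayed within their intervals. In 600 bp all 15 rose, but that window contains the one of 300 bp, so no share could fall.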

Other observations

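A few genes stood at the other end, with mostly acetylated distal regions. Among the 382 genes with 10 or more distal regions the median share primed was 75%, and the lowest was 23.5% at Atp8b4, with 4 of 17. Tnfrsf1b, a receptor of TNF, had 4 of 14, Ifngr1, a chain of the interferon-γ receptor, 3 of 10, Nedd9, an adaptor of cell adhesion, 3 of 10, and Rftn1, a lipid raft protein, 6 of 17. At Ifngr1, 3 of the other distal regions were acetylated in all 4 genotypes. These genes were chosen for their low share, and with 10 to 17 regions each the intervals are wide, 8.39% to 58.1% at Tnfrsf1b. The promoter of the neural gene Neurod1 had an H3K4me3 peak in 4 of 4 genotypes and no H3K27ac peak, and no distal H3K4me1 region was nearest to it.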
